A study of Homo sapiens with 12 samples.

Results

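The TPC1 arrays were the 4 of the 12 arrays in the series whose labels give the cell line TPC1, and they compared 2 arrays of cells treated with Y15 with 2 arrays of untreated cells. TPC1 is a line of human papillary thyroid carcinoma that carries the RET/PTC1 rearrangement, in which the kinase part of RET is joined to another gene. Y15 (1,2,4,5-benzenetetraamine tetrahydrochloride) is a small molecule that blocks the autophosphorylation of focal adhesion kinase (FAK), which is encoded by PTK2. Treated cells received 10 µM Y15 for 24 hours, and no vehicle is named for the untreated arrays. How the cells were collected is not given for these arrays, so it is not known whether detached cells were included. The other 8 arrays held BCPAP and K1, which are papillary lines with BRAF mutations, in the same design. Nothing states that the duplicates of TPC1 came from separate plates, so the spread between them may be technical. Standard errors and p-values rest on 1 spread per gene, estimated within the 6 groups of all 12 arrays. They do not measure the spread of the TPC1 duplicates alone.

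FAK is a cytoplasmic tyrosine kinase that gathers at focal adhesions, where integrins tie the cell to the extracellular matrix. On integrin binding it phosphorylates itself, recruits SRC and passes signals on to survival, motility and proliferation pathways. Cells answer blocked adhesion or chemical stress with a few well known programs. These are the heat shock response, the integrated stress response led by ATF4, the oxidative response led by NRF2, the p53 response and the NF-kB response. The genes of these programs and of adhesion, cell cycle and metabolism were therefore read as lists.

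Between 18834 and 19203 probes were above background (detection p under 0.05) on the arrays with Y15, against 19788 and 20376 on the untreated arrays. The correlation of log2 signals across genes, which do not count as replicates, was 0.997 between the Y15 duplicates and 0.998 between the untreated duplicates. Signals are given below as log2 quantile-normalized intensity, and changes as log2 differences, Y15 minus untreated. The number of arrays limits the precision. Among markers of the thyroid follicular cell, the transcription factors PAX8 and FOXE1 were above background on every TPC1 array, and TG, NKX2-1 and SLC5A5 on none. The keratins KRT8, KRT18 and KRT7 were above background on every array, whereas KRT19, EPCAM and CDH1 were on none. None of 5 markers of parafollicular C cells and none of 5 of endothelium was above background on both arrays of a group.

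Y15 changed the signal of a large part of the genes measured in TPC1. Of 11207 genes above background on both arrays of either group, 3967 (35.4%) were called at a Benjamini-Hochberg adjusted p under 0.05 from limma. With Y15, 1938 (17.3%) were higher and 2029 (18.1%) lower. Counts of list members below are to be read beside these shares, also where the shares are not repeated. Over 2-fold, 399 genes changed (3.56%), of which 175 were higher (1.56%) and 224 lower (2.00%), and over 4-fold 30 were higher (0.268%) and 16 lower (0.143%). For all 3967 genes called, both Y15 arrays lay on one side of both untreated arrays, as they did for 8595 (76.7%) of the genes tested. By quantile normalization all arrays were given 1 common distribution of signal, to which the changes below are relative. Centring each array on its median instead moved the median change of all genes to -0.25, against 0.00 with quantile normalization, and 8.61% of the calls were then higher, against 48.9%. Where median centring turns the sign of a list's median or lowers its count of higher genes by over 1.5 times, its value is given beside the main one.

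**Figure D1:**
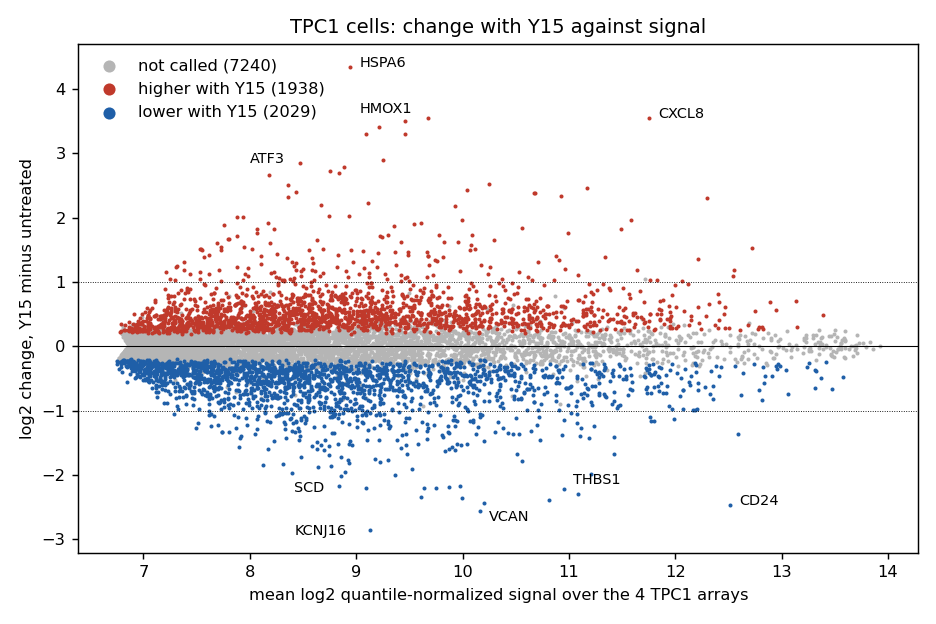
Change with Y15 in TPC1 (log2, Y15 minus untreated) against the mean log2 quantile-normalized signal over the 4 arrays, with a point for each of the 11207 genes tested. Red points are the 1938 genes called higher, blue points the 2029 called lower, and the dotted lines mark 2-fold; the points above 2-fold reach 4.34 (HSPA6) and those below reach -2.85 (KCNJ16).

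The largest rises joined stress proteins, a chemokine and small nuclear RNAs. HSPA6, a strictly inducible heat shock protein, had a log2 signal of 10.998 and 11.23 with Y15, against 6.78 and 6.77 in untreated cells, where it was not above background. On this probe, its brighter one, HSPA6 was at least 19.2-fold higher with Y15 (adjusted p = 4.24e-10), while its dimmer probe rose by 1.82. The signal of HSPA6 may include that of the near-identical pseudogene HSPA7. HMOX1, heme oxygenase, which breaks down heme to bilirubin precursors, iron and carbon monoxide, had 11.28 and 11.62 with Y15, against 7.89 and 7.92 in untreated cells. The rise was 3.55 (log2; standard error 0.33, adjusted p = 1.36e-05). CXCL8, the neutrophil chemokine interleukin 8, had 13.59 and 13.45 with Y15, against 10.13 and 9.84 in untreated cells, a change of 3.54 (standard error 0.12, adjusted p = 1.29e-08). The Y15 arrays of these genes all lay far above the untreated arrays. ATF3, a stress-induced transcription factor, rose by 2.85 and TRIB3, a pseudokinase induced by ATF4 and CHOP, by 2.52. For IL24, a secreted relative of interleukin 10, the rise was at least 6.31-fold, and its dimmer probe had a change of 0.82 that was not called (adjusted p = 0.111). LCP1, plastin 2, an actin bundling protein best known from leukocytes, rose by 2.501, while PTPRC, the leukocyte marker CD45, was not above background on any TPC1 array.

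The largest falls were of membrane proteins, matrix and secreted proteins and a transcription factor. KCNJ16, an inwardly rectifying potassium channel subunit, had a log2 signal of 7.79 and 7.62 with Y15, against 10.61 and 10.499 in untreated cells, and fell by 2.85 (standard error 0.10, adjusted p = 1.43e-08). VCAN, versican, a hyaluronan-binding proteoglycan of the matrix, had 9.001 and 8.77 with Y15, against 11.495 and 11.38 in untreated cells, and fell by 2.55 (standard error 0.32, adjusted p = 0.000125). CD24, a surface glycoprotein used as a tumour stem cell marker, had 11.32 and 11.24 with Y15, against 13.80 and 13.70 in untreated cells, and fell by 2.47. In each the arrays of the 2 groups were apart by over 1 log2 unit. CEBPD, C/EBP delta, a transcription factor of acute phase genes, fell by 2.43 and CXXC5, a zinc finger protein that restrains Wnt signalling, by 2.21. CGNL1, paracingulin of the junctional plaque, fell by 2.40, and AIF1L, an actin-binding protein, by 2.36. The secreted proteins IGFBP3 (fell by 2.29), which binds insulin-like growth factors, and THBS1 (fell by 2.22), thrombospondin, were also among the 15 largest. SCD, stearoyl-CoA desaturase, fell by 2.17 and FLG, filaggrin of the epidermis, by 2.17. SLC17A3, a urate and phosphate transporter, KCNIP1, a potassium channel interacting protein, and FAM20C, a kinase of secreted proteins, fell by 2.35, 2.19 and 2.18. KIF20A, a kinesin of cytokinesis, fell by 2.20.

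**Figure D2:**
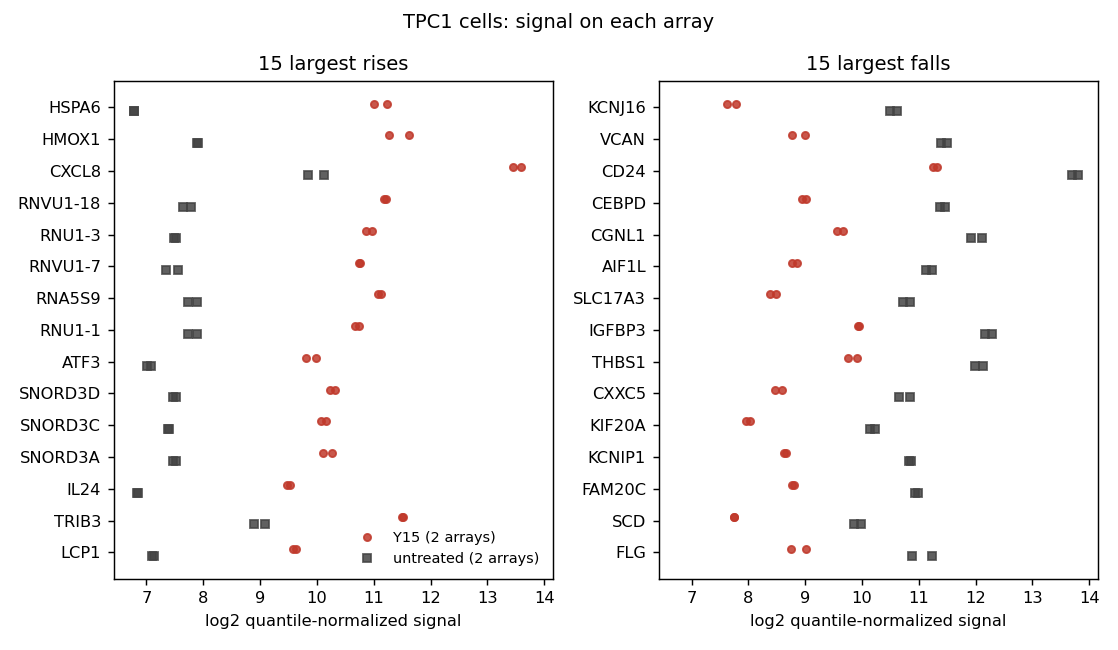
Log2 quantile-normalized signal on each TPC1 array for the 15 genes with the largest rises (left) and the 15 with the largest falls (right), with red circles for the 2 Y15 arrays above black squares for the 2 untreated arrays of each gene. In all 30 rows the red circles lie clear of the black squares, and the duplicates of a group lie close to each other.

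The transcript of FAK itself was not called, and its partners were called in both directions. PTK2 had a log2 signal of 11.15 and 11.01 with Y15, against 11.23 and 11.12 in untreated cells, so that the groups overlapped. The change was -0.10 (95% interval -0.35 to 0.16, adjusted p = 0.552). PTK2B, the related kinase PYK2, changed by -0.23 and was not called (adjusted p = 0.0899), though it was with median centring or when the 4 TPC1 arrays were fitted alone. Of 34 tested genes of FAK and focal adhesion partners, 4 were higher and 8 lower, 11.8% and 23.5% against 17.3% and 18.1% of all genes, with a median of -0.01, or -0.38 with 0 higher under median centring. TNS3, tensin 3, which links integrins to actin, had 8.62 and 8.51 with Y15, against 10.48 and 10.47 in untreated cells, and fell by 1.91 (standard error 0.085, adjusted p = 9.68e-08). ITGB3, the integrin beta 3 subunit of the vitronectin receptor, fell by 0.95 and TLN2, talin 2, which activates integrins, by 0.83. ITGA2, the alpha 2 subunit of a collagen receptor, had 8.87 and 8.93 with Y15, against 7.84 and 7.88 in untreated cells, a change of 1.04 (adjusted p = 6.1e-06) that was not called with median centring. Integrin subunits thus lay on both sides.

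Matrix genes were mostly lower. Of 29 tested genes of collagens, laminins and matrix glycoproteins, 20 were lower and 1 higher, with a median change of -0.70. Beside VCAN and THBS1, LAMA5, a laminin chain of basement membranes, fell by 1.27, SPARC, a collagen-binding glycoprotein, by 1.24 and FN1, fibronectin, by 0.77. LUM, lumican, a small proteoglycan, had 8.68 and 8.63 with Y15, against 9.83 and 9.62 in untreated cells, and fell by 1.07. LUM is also in the list of 7 fibroblast markers, of which 1 was above background on both Y15 arrays and 3 on both untreated arrays. Their summed signal was 1047 to 1060 with Y15, against 1468 to 1591 in untreated cells, while DCN and PDGFRA were not above background on any array. LUM was by far the brightest of the 7, and the group means of the others lay between 6.60 and 6.99 (log2). The sums therefore mainly follow LUM. Whether the fibroblast markers have a part in the fall of the matrix genes was not tested. Proteases and their inhibitors were split, with 4 higher (1 with median centring) and 7 lower of 17. These shares are 23.5% and 41.2%, against 17.3% and 18.1% of all genes. Both counts fell when untreated replicate 1 or Y15 replicate 2 was left out. TIMP2, an inhibitor of metalloproteinases, fell by 1.78 (standard error 0.13, adjusted p = 2.76e-06), and ADAM9, a membrane sheddase, by 1.14. PLAUR, the urokinase receptor, had 10.37 and 10.40 with Y15, against 9.002 and 8.94 in untreated cells, a rise of 1.41 (standard error 0.14, adjusted p = 2.52e-05).

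Most tested genes of caveolae, and of a mixed list of stem cell markers and hyaluronan genes, were called lower with all arrays in the fit. In the list of tight and adherens junction proteins 4 of 15 were lower (26.7% against 18.1% of all genes) and 0 higher. JUP, plakoglobin, fell by 1.46 (standard error 0.097, adjusted p = 1.27e-06), with its dimmer probes at -0.40 and -0.39, and CTNNB1, beta-catenin, fell by 0.66. Of 9 genes of caveolins and cavins, which shape the small pits of the plasma membrane, 6 were lower (66.7% against 18.1%) and 0 higher. Among the 6 were CAVIN3 (-1.57), CAVIN2 (-0.80), CAV1 (-0.72) and CAVIN1 (-0.67). Of 11 genes of stem cell markers and hyaluronan, 8 were lower, with a median of -0.71, and 5 were lower when any 1 array was left out. HAS3, a hyaluronan synthase, had 9.36 and 9.36 with Y15, against 10.44 and 10.57 in untreated cells, and fell by 1.15. KLF4, a transcription factor, was the only member called higher (0.58), and was named after its value was seen. Among 38 actin binding and contractile proteins 8 were higher (2 with median centring) and 15 lower. These shares are 21.1% and 39.5%, against 17.3% and 18.1% of all genes. MYH10, a non-muscle myosin heavy chain, fell by 1.33.

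The targets of YAP and TEAD, which answer cell tension, were called in both directions. Of 23 tested, 6 were higher and 6 lower, 26.1% each against 17.3% and 18.1% of all genes. The median was -0.02, and 2 were higher with median centring. IGFBP3, THBS1 and MYOF, myoferlin of the plasma membrane (fell by 1.46), were at the low end, and GADD45B, a stress-induced regulator of growth arrest, at the high end (1.44, standard error 0.24, adjusted p = 0.00079). The classical targets CCN1 (0.70), CCN2 (0.91) and ANKRD1 (1.31), singled out after their values were seen, were called higher. Not all of them kept this call with median centring, where 2 members of the list were higher. Of 19 insulin-like growth factor binding proteins, TGF-beta ligands and their transducers 7 were lower (36.8% against 18.1% of all genes). Called higher were 3 (15.8% against 17.3%), fewer when any 1 array was left out and 0 with median centring. The ligand GDF15, described with the ATF4 targets, had the largest rise. SMAD3, the transducer of TGF-beta, had 9.13 and 9.11 with Y15, against 10.71 and 10.77 in untreated cells, and fell by 1.62 (standard error 0.14, adjusted p = 8.1e-06), and IGFBP6 fell by 1.16. Among receptor tyrosine kinases and EGF family ligands, 3 of 20 were higher (1 with median centring, 1 to 2 when an array was left out) and 4 lower (2 to 3 when an array was left out), 15% and 20% against 17.3% and 18.1% of all genes. ERBB2, the HER2 receptor, fell by 0.73, and HBEGF, a ligand of the EGF receptor, had 10.24 and 10.35 with Y15, against 8.46 and 8.38 in untreated cells, a rise of 1.87 (standard error 0.076, adjusted p = 5.01e-08). RET, part of which is in the rearranged kinase of this line, had a change of -0.02 that was not called (adjusted p = 0.871, named after its value was seen).

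**Figure D3:**
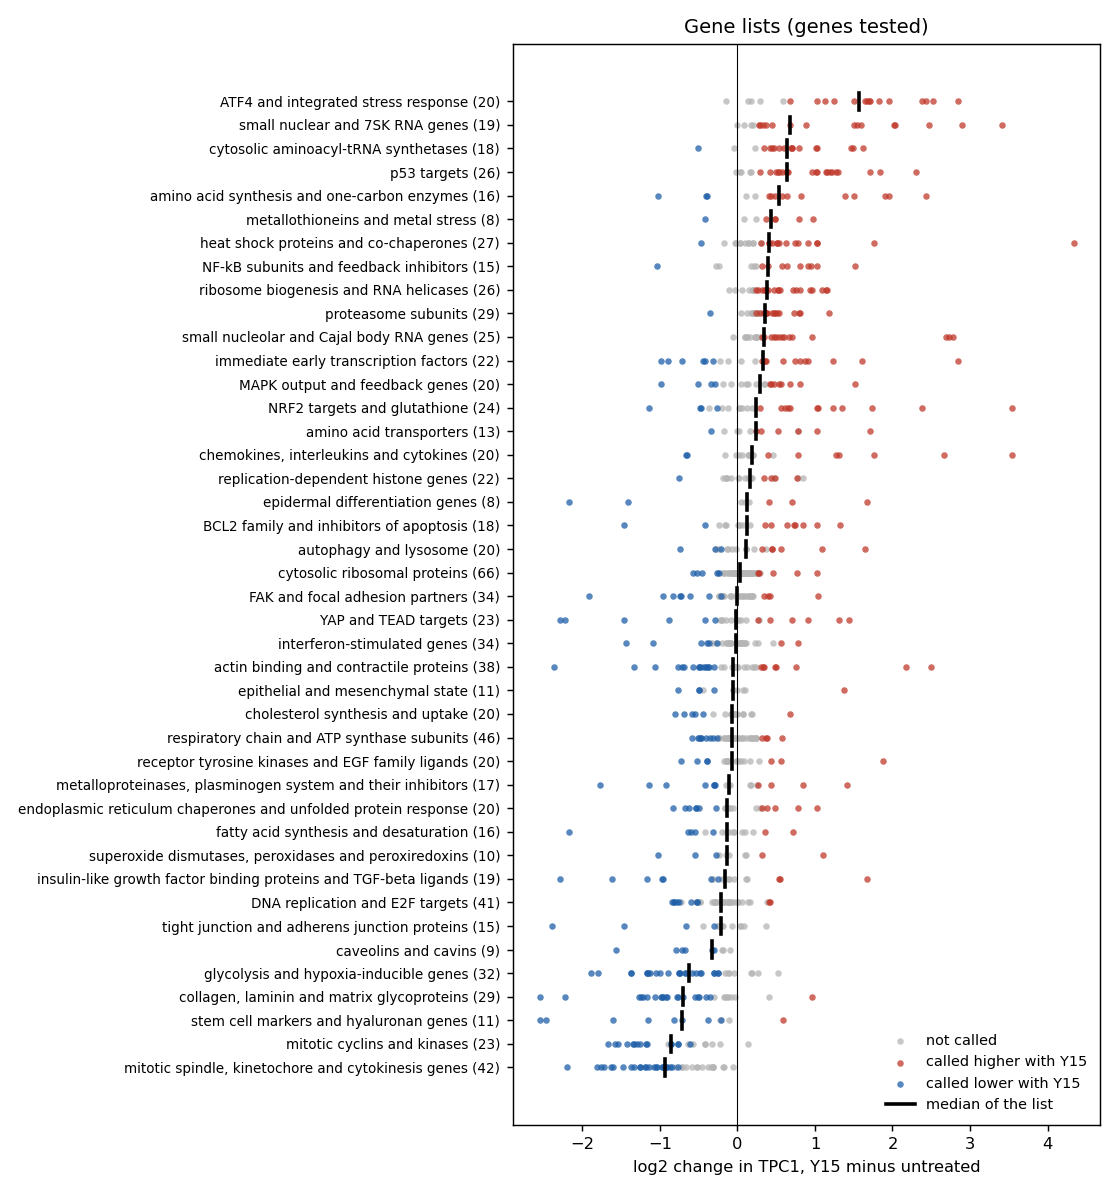
Log2 change in TPC1, Y15 minus untreated, of the tested members of each gene list with at least 8 tested genes, in red where called higher, blue where called lower and grey where not called, with a black bar at the median of the list. Medians run from 1.57 for ATF4 and the integrated stress response to -0.93 for the mitotic spindle, and those of the lists of proteasome subunits, amino acid transporters, NRF2 targets, immediate early factors, MAPK output, the BCL2 family, autophagy, epidermal differentiation and ribosomal proteins are above 0 here but below 0 with median centring.

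Heat shock proteins refold damaged proteins in the cytosol, and their genes are switched on by the factor HSF1 through heat shock elements. Of 27 tested genes of this list 15 were higher (55.6% against 17.3% of all genes) and 1 lower with Y15. The median was 0.41 (0.09 with median centring, where 5 were higher). HSPA1B, an inducible heat shock protein that shares sequence with HSPA1A, had 11.85 and 11.90 with Y15, against 10.06 and 10.15 in untreated cells, a rise of 1.76 (standard error 0.16, adjusted p = 1.25e-05). DNAJB9, a co-chaperone of the endoplasmic reticulum that stands in both chaperone lists, rose by 1.03. HSPA9, the mitochondrial member, rose by 1.03 and was not called with median centring. HSPB1, a small heat shock protein, was the member called lower (-0.48, adjusted p = 0.0477), though not when any 1 TPC1 array was left out, and was named after its value was seen. The promoter of HSPA6, the gene with the largest rise, is shown to place its heat shock elements. It covers the 250 bases before the RefSeq start site (chr1:161524290-161524539, plus strand, GRCh38.p14), with matches to GAANNTTC, read on both strands, in capitals.
HSPA6 promoter: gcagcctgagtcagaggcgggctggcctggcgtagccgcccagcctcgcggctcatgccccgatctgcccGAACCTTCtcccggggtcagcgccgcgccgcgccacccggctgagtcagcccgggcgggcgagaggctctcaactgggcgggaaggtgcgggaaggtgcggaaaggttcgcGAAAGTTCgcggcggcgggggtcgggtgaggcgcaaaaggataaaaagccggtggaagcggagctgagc
The letters matched in 2 places, the nearer of which began 69 bases before the start site. They were found in 5.85% of all 27305 promoters of the RefSeq table, 4.12% of those of tested genes and in 10 of 24 promoters of tested heat shock genes with a promoter there. A match is a description of the letters only.

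Chaperones of the endoplasmic reticulum were called in both directions. Of 20 genes of that list 5 were higher (1 with median centring) and 7 lower, 25% and 35% against 17.3% and 18.1% of all genes. The list median was -0.13, and DNAJB9, which is in this list too, had the largest rise of the list. HSP90B1, the resident HSP90 of this compartment, had 12.02 and 11.86 with Y15, against 12.84 and 12.70 in untreated cells, and fell by 0.83 (standard error 0.098, adjusted p = 8.39e-05), and PDIA6, a disulfide isomerase, fell by 0.68. XBP1, a transcription factor of the unfolded protein response, rose by 0.78 and was not called with median centring. Proteasome subunits, which form the particle that degrades tagged proteins, were higher in 17 of 29 and lower in 1, with a median of 0.35, but -0.10 with median centring, where 1 was higher. The count of higher subunits was 9 without untreated replicate 1 and 9 to 14 over the arrays left out. The largest rise was of PSMB7, a catalytic core subunit, which had 12.22 and 12.25 with Y15, against 10.99 and 11.11 in untreated cells (rise of 1.18, standard error 0.096, adjusted p = 4.87e-06). Among genes of autophagy and the lysosome 6 of 20 were higher and 3 lower, 30% and 15% against 17.3% and 18.1% of all genes. Fewer were lower when any 1 array was left out. The list median was 0.11, but -0.29 with 1 higher under median centring. MAP1LC3B, which coats autophagosomes, rose by 1.65 (standard error 0.23, adjusted p = 0.000256), and CTSD, the protease cathepsin D, fell by 0.74.

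ATF4 is translated when the initiation factor eIF2 is phosphorylated, and it induces genes of amino acid supply and of cell death. Its list had the highest median, at 1.57, with 15 of 20 genes higher and 0 lower. ASNS, asparagine synthetase, had 11.25 and 11.27 with Y15, against 8.83 and 8.83 in untreated cells, a rise of 2.43 (standard error 0.29, adjusted p = 8.19e-05). PPP1R15A, GADD34, which restores translation by directing a phosphatase to eIF2, had 11.83 and 11.90 with Y15, against 9.51 and 9.46 in untreated cells, a rise of 2.38 (standard error 0.37, adjusted p = 0.000535). The untreated arrays lay below the Y15 arrays in both. CEBPB and CEBPG, partners of ATF4 on DNA, rose by 1.82 and 1.70, DDIT3, the death-promoting factor CHOP, by 1.65, and SESN2, a stress sensor that restrains mTORC1, by 1.71. GDF15, a circulating stress hormone, changed by 1.67 and was called (adjusted p = 0.0354), though not when any 1 TPC1 array was left out. The list had 11 to 12 higher genes when an array was left out.

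Genes that make amino acids and load them onto tRNA were higher too. Of 16 enzymes of amino acid synthesis and one-carbon metabolism 11 were higher and 3 lower (median 0.53, or 0.08 with 5 higher under median centring). PSAT1, of serine synthesis, had 12.55 and 12.57 with Y15, against 10.65 and 10.55 in untreated cells, a rise of 1.96 (standard error 0.32, adjusted p = 0.000651). MTHFD2, a mitochondrial folate enzyme, rose by 1.90, and CTH, which makes cysteine, by 1.497. Those called lower were SHMT1 (-1.02), MTHFD1 (-0.40) and ALDH18A1 (-0.40), named after their values were seen, of which SHMT1 and MTHFD1 are folate enzymes of the cytosol. Cytosolic aminoacyl-tRNA synthetases were higher in 15 of 18 (83.3% against 17.3% of all genes) and lower in 1. Their median was 0.64, or 0.19 with median centring, where 3 were higher. WARS1, for tryptophan, had 10.66 and 10.87 with Y15, against 9.08 and 9.21 in untreated cells, a rise of 1.63, and MARS1 and SARS1, for methionine and serine, rose by 1.497 and 1.46. The synthetase called lower was QARS1 (-0.51), for glutamine, also named after its value was seen. Amino acid transporters were higher in 6 of 13 (median 0.24, but -0.01 with 2 higher under median centring), and in 3 when any 1 TPC1 array was left out, led by SLC1A5, a carrier of glutamine, at 1.71 (standard error 0.22, adjusted p = 0.000129).
The promoter of ASNS is shown because it holds the element through which ATF4 is known to act. It covers 250 bases before the first listed RefSeq start site (chr7:97872409-97872658, minus strand, GRCh38.p14), with matches to TGATGNAA in capitals.
ASNS promoter: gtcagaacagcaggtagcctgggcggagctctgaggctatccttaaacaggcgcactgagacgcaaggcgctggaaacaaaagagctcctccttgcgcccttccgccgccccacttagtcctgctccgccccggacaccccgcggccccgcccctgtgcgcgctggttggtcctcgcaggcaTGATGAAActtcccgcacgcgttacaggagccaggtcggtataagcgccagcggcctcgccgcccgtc
The letters began 68 bases before the start site. They were found on either strand in 3.19% of all promoters (1.46% of those of tested genes), in 3 of 17 of the tested genes of the ATF4 list with a promoter in the table and in 3 of 13 of the amino acid enzymes.

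NRF2 induces enzymes that make glutathione and reduce peroxides and quinones. Of 24 genes of its list 12 were higher and 4 lower, with a median of 0.24, but -0.0017 with median centring, where 6 were higher and 7 lower. Beside HMOX1, TXNRD1, thioredoxin reductase, had 11.79 and 11.93 with Y15, against 9.44 and 9.53 in untreated cells, a rise of 2.38 (standard error 0.24, adjusted p = 2.44e-05). SRXN1, sulfiredoxin, which repairs oxidized peroxiredoxins, had 10.60 and 10.69 with Y15, against 8.90 and 8.92 in untreated cells, a rise of 1.73. GCLM, the regulatory subunit of the enzyme that starts glutathione synthesis, rose by 1.35, and MAFF, a small partner of NRF2, by 1.23. NQO1, a quinone reductase and a common readout of NRF2, changed by 0.19 and GCLC, the catalytic subunit of glutathione synthesis, by 0.12, and neither was called (adjusted p = 0.134 and 0.305). Those called lower were AKR1C3 (-1.14), GSR (-0.48), TKT (-0.47) and NFE2L2 (-0.26), which encodes NRF2, and 2 list members were called lower when untreated replicate 1 or Y15 replicate 1 was left out. NQO1, GCLC and these 4 were named after their values were seen. Metallothioneins, which bind zinc and copper, had 5 of 8 list members higher (62.5% against 17.3% of all genes) and 1 lower. With median centring 1 was higher. Among those higher in the main result was MT1X (0.97), whose probe may share sequence with its paralogs. Of 10 superoxide dismutases, peroxidases and peroxiredoxins 2 were higher (0 with median centring) and 3 lower, 20% and 30% against 17.3% and 18.1% of all genes. SOD2, the mitochondrial superoxide dismutase, rose by 1.11 (standard error 0.21, adjusted p = 0.00171) and was not called with median centring. CAT, catalase, fell by 1.03 (standard error 0.12, adjusted p = 6.51e-05) and GPX4, which reduces lipid peroxides, by 0.55.

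p53 targets were higher throughout the called part of their list, with 80.8% called higher against 17.3% of all genes. Of 26 tested, 21 were higher and 0 lower, with a median of 0.64, and 20 to 21 were higher when an array was left out and 12 with median centring. CDKN1A, the cell cycle inhibitor p21, had 13.46 and 13.44 with Y15, against 11.13 and 11.16 in untreated cells, a rise of 2.31 (standard error 0.15, adjusted p = 1.24e-06), with a dimmer probe at 0.49 that was also called. GADD45A, a growth arrest protein, had 11.46 and 11.501 with Y15, against 9.78 and 9.497 in untreated cells, a rise of 1.84 (standard error 0.23, adjusted p = 9.98e-05). TIGAR, which lowers the sugar phosphate that drives glycolysis, rose by 1.29, and PMAIP1, the death protein NOXA, by 1.03. MDM2, the ligase that degrades p53, rose by 0.65, while BBC3, the death protein PUMA, changed by 0.16 and was not called (adjusted p = 0.136); both were named after their values were seen. None of the other 5 tested inhibitors of cyclin-dependent kinases was called higher. CDKN2A, the gene of p16 and ARF, had 8.90 and 8.84 with Y15, against 10.08 and 10.01 in untreated cells, and fell by 1.18 (standard error 0.084, adjusted p = 1.91e-06), and CDKN1C, p57, fell by 1.04. In the BCL2 family and inhibitors of apoptosis 8 of 18 were higher and 2 lower, 44.4% and 11.1% against 17.3% and 18.1% of all genes. The median was 0.12, but -0.10 with 2 higher under median centring. The largest change was of BIRC5, survivin, an inhibitor of apoptosis that also acts in mitosis, which fell by 1.47 (adjusted p = 0.00857), though it was not called when Y15 replicate 2 was left out. BCL2L2, a survival protein, rose by 1.32 (standard error 0.19, adjusted p = 0.000332).

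Genes of mitosis were lower. Of 42 genes of the spindle, kinetochore and cytokinesis 25 were lower (59.5% against 18.1% of all genes) and 0 higher. Their median was -0.93, the lowest of all lists. Of 23 mitotic cyclins and kinases 15 were lower (65.2%) and 0 higher (median -0.86). KIF20A had 7.95 and 8.03 with Y15, against 10.15 and 10.24 in untreated cells (standard error 0.44, adjusted p = 0.00234). TOP2A, the topoisomerase that separates sister chromatids, had 9.71 and 9.65 with Y15, against 11.41 and 11.28 in untreated cells, and fell by 1.67 (standard error 0.39, adjusted p = 0.00626). CENPF, of the kinetochore, fell by 1.73, DLGAP5 and ASPM, of spindle assembly, by 1.81 and 1.76, and AURKA, the kinase Aurora A, by 1.54. Standard errors, which are estimated over all 12 arrays, were above the median of 0.0952 over all genes in each of these. Without the 4 K1 arrays 39 spindle genes and 22 cyclins and kinases were lower, and with 1 TPC1 array left out 10 to 14 and 5 to 7. In bulk samples fewer cells in mitosis and less RNA in each cannot be told apart. Of 41 DNA replication and E2F targets 8 were lower, 19.5% against 18.1% of all genes, and 2 higher (0 with median centring), with a median of -0.21; 3 were lower when any 1 array was left out and 19 without the K1 arrays. MCM6, of the replicative helicase, fell by 0.85 and DUT, which clears dUTP, by 0.82. PCNA (0.41) and CCND1 (0.42), the members called higher, were named after their values were seen.
The promoter of CCNB2, cyclin B2, which fell by 1.58 (adjusted p = 0.00876), is shown for its CCAAT boxes and its cell cycle homology region (TTTGAA), both in capitals. CCNB2 was not called when untreated replicate 1 or Y15 replicate 1 was left out. The 250 bases lie at chr15:59104896-59105145, plus strand, GRCh38.p14.
CCNB2 promoter: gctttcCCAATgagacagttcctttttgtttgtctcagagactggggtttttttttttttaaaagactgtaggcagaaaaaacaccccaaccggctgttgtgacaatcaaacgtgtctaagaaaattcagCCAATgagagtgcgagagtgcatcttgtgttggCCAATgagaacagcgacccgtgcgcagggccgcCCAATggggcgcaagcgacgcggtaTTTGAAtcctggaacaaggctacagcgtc
CCAAT matched on either strand 4 times and TTTGAA in 1 place, which began 29 bases before the start site. CCAAT was in 33% of all promoters (35.7% of those of tested genes) and in 27 of 38 of tested spindle genes and 16 of 20 of cyclins and kinases with a promoter in the table. TTTGAA was in 13.6% of all promoters (8.49% of those of tested genes), 20 of 38 of the spindle genes and 10 of 20 of the cyclins and kinases.

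Most glycolysis and hypoxia-inducible genes were lower. Glycolysis turns glucose to pyruvate, and the factor HIF-1 raises its enzymes when oxygen is short. Of 32 genes of this list 24 were lower and 0 higher, with a median of -0.63, and 16 to 20 were lower when an array was left out. PFKFB4, which sets the level of an activator of glycolysis, had 7.73 and 7.67 with Y15, against 9.63 and 9.53 in untreated cells, and fell by 1.88 (standard error 0.18, adjusted p = 1.37e-05). CA12, a carbonic anhydrase of the cell surface, had 8.27 and 8.39 with Y15, against 10.11 and 10.15 in untreated cells, and fell by 1.80 (standard error 0.19, adjusted p = 2.97e-05). NDRG1, a stress protein induced by hypoxia, had 9.13 and 9.11 with Y15, against 10.501 and 10.49 in untreated cells, and fell by 1.38. BNIP3L, a receptor of mitophagy, fell by 1.38 on its brighter probe, and its dimmer probe changed by -0.04. The following members were named after their values were seen. The glucose transporter SLC2A1 (-1.16) and the glycolytic enzymes PGAM1 (-1.16), PGK1 (-1.13), PFKL (-1.05), ALDOA (-0.996), TPI1 (-0.75), PKM (-0.68) and LDHA (-0.66) were called lower. GAPDH (-0.12), ENO1 (-0.16), HK1 (-0.11) and VEGFA (0.18), the angiogenic factor that HIF-1 induces, were not called. TIGAR, described with the p53 targets, moved in the opposite direction.
The promoter of PGK1, phosphoglycerate kinase, is shown for the core of the hypoxia response element (ACGTG on either strand, in capitals), over the 250 bases before its start site (chrX:78103998-78104247, plus strand, GRCh38.p14).
PGK1 promoter: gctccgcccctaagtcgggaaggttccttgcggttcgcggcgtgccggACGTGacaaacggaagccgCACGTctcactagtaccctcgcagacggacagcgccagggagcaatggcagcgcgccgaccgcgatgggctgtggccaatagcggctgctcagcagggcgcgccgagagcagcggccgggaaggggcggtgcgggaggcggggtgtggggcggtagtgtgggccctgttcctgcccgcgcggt
The core matched in 2 places. It was in 18.7% of all promoters (24% of those of tested genes) and in 11 of 28 of tested list members with a promoter in the table, so that most members lacked it within this window.

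**Figure D4:**
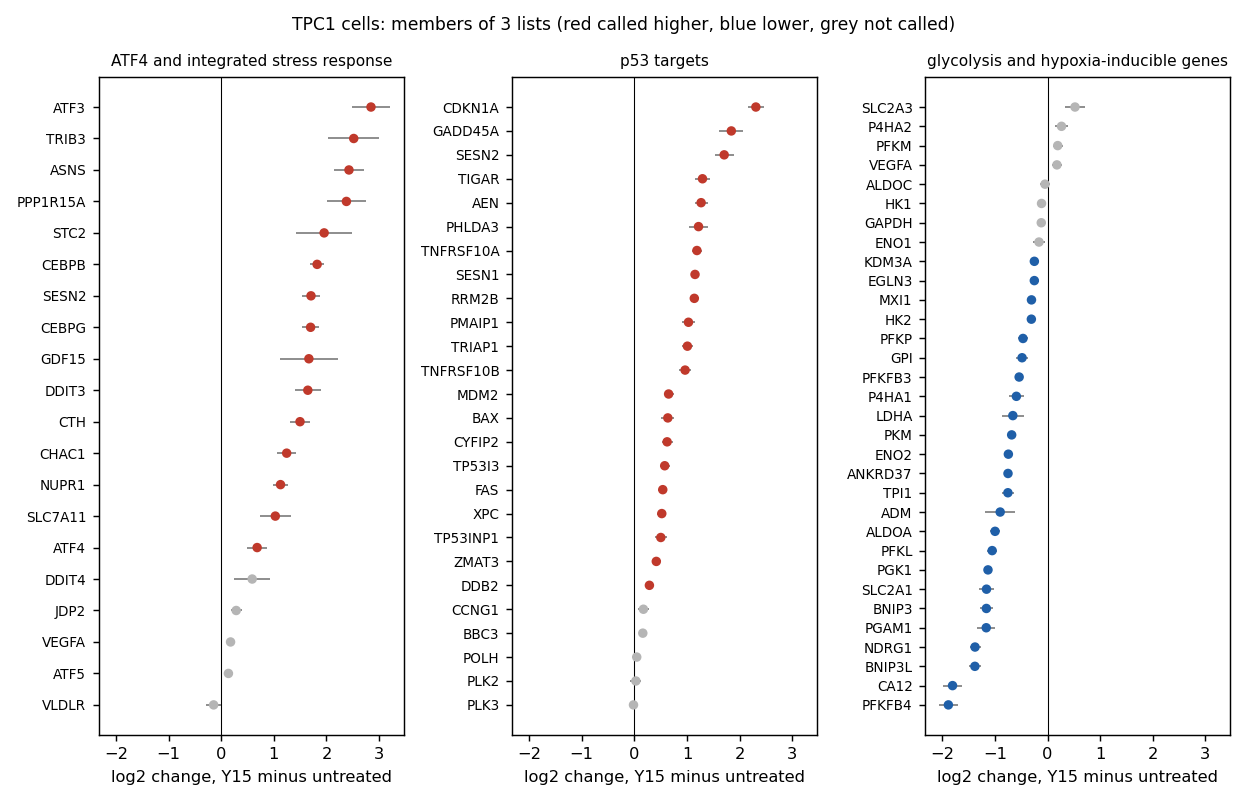
Log2 change in TPC1, Y15 minus untreated, of every tested gene of 3 lists, with standard errors from limma as horizontal bars. Of the ATF4 list 15 of 20 genes are red (called higher) and of the p53 list 21 of 26, whereas 24 of 32 genes of glycolysis and hypoxia are blue (called lower).

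Chemokines and interleukins held some of the largest rises. Of 20 chemokines, interleukins and cytokines above background 7 were higher and 2 lower, with a median of 0.19. Beside CXCL8 and IL24, IL1A, interleukin 1 alpha, had 8.96 and 8.92 with Y15, against 7.22 and 7.16 in untreated cells, a rise of 1.76 (standard error 0.11, adjusted p = 9.65e-07), and CXCL2 rose by 1.31. Subunits and feedback inhibitors of NF-kB were higher in 9 of 15 and lower in 1 (median 0.40, with 5 higher under median centring). TNFAIP3, A20, which switches NF-kB off, had 8.86 and 8.70 with Y15, against 7.28 and 7.25 in untreated cells, a rise of 1.52 (standard error 0.17, adjusted p = 5.31e-05). RELB and NFKB2, of the non-canonical arm, rose by 1.02 and 0.95. BCL3, a nuclear cofactor of NF-kB, had 8.58 and 8.54 with Y15, against 9.55 and 9.64 in untreated cells, and fell by 1.04. IL6 (0.16) and IL1B (0.15), named after their values were seen, were not called. Of 34 interferon-stimulated genes 2 were higher (5.88% against 17.3% of all genes, and 0 with median centring). Called lower were 6 (17.6% against 18.1% of all genes), and fewer when an array was left out. Among these genes GBP2, a guanylate-binding protein, fell by 1.43 and IFIT1, which binds foreign RNA, by 1.08. Those called higher were TAP1 (0.78) and ISG15 (0.56). Of 7 leukocyte markers, CD68 and CD14 were above background on every TPC1 array and PTPRC, CD3D, CD3E, MS4A1 and LYZ on none, and their summed signal was 988 to 1050 with Y15, against 902 to 934 in untreated cells. The 2 detected markers moved in opposite directions. CD68 had a mean of 8.48 with Y15, against 7.92 in untreated cells, and CD14 had 6.91, against 7.22. The part of leukocyte markers in the rise of the cytokines was not tested.
The promoter of CXCL8 is shown for its AP-1 (TGANTCA) and NF-kB (GGAATTTCC) sites, in capitals, over 250 bases before the start site (chr4:73740319-73740568, plus strand, GRCh38.p14).
CXCL8 promoter: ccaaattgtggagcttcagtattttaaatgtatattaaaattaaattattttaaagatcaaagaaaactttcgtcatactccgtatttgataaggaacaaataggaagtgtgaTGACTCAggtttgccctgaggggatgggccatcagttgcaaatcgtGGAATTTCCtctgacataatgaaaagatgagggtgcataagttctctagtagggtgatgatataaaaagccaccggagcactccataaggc
Each set of letters matched in 1 place, 137 bases before the start site for AP-1 and 91 for NF-kB. On either strand GGAATTTCC was in 0.428% of all promoters (0.375% of those of tested genes), in 3 of 13 of tested cytokine genes with a promoter in the table and in 4 of 13 of the NF-kB list. TGANTCA was in 6.6% of all promoters (3.84% of those of tested genes) and 3 of 13 of the cytokine genes.

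Immediate early and MAPK-driven genes were split. Of 22 immediate early transcription factors 11 were higher (6 to 8 when an array was left out) and 6 lower (median 0.34, but -0.03 with 4 higher under median centring). FOSB, of the AP-1 family, rose by 1.61 (standard error 0.31, adjusted p = 0.00215), while EGR1, a zinc finger factor induced by growth signals, had 9.11 and 8.96 with Y15, against 10.23 and 9.82 in untreated cells, and fell by 0.99 (standard error 0.16, adjusted p = 0.000735). Of 20 genes of MAPK output and feedback 8 were higher and 4 lower, 40% and 20% against 17.3% and 18.1% of all genes. Fewer of each were called when an array was left out. The median was 0.30, but -0.01 with 1 higher under median centring. DUSP5, a nuclear phosphatase that shuts off ERK, had 10.87 and 10.87 with Y15, against 9.36 and 9.35 in untreated cells, a rise of 1.52 (standard error 0.15, adjusted p = 2.68e-05). DUSP6, its cytoplasmic relative, changed by -0.09 and was not called (adjusted p = 0.671, named after its value was seen).

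Small RNA genes and genes of ribosome assembly were higher. The labelling kit primes on poly(A) tails, which most of these small RNAs lack, so their signals may not follow their amounts. Of 19 small nuclear and 7SK RNA genes 15 were higher (78.9% against 17.3% of all genes) and 0 lower (median 0.68). Genes of the U1 family, which marks 5′ splice sites, share sequence and are reported as a family. Its members RNVU1-18, RNU1-3, RNVU1-7 and RNU1-1 rose by 3.49, 3.41, 3.30 and 2.90. RNU1-3 had 10.87 and 10.97 with Y15, against 7.52 and 7.49 in untreated cells, so that the groups lay over 3 log2 units apart. RNU6-1, of U6, had 12.41 and 12.39 with Y15, against 9.88 and 9.99 in untreated cells, a rise of 2.47 (standard error 0.15, adjusted p = 7.94e-07), and RN7SK, which holds the elongation factor P-TEFb inactive, had 9.74 and 9.78 with Y15, against 7.74 and 7.71 in untreated cells, a rise of 2.03. RNA5S9, of the family of small ribosomal RNA made by polymerase III, rose by 3.29. Of 25 small nucleolar and Cajal body RNA genes 14 were higher and 0 lower (median 0.34, with 5 higher under median centring), with the U3 family, which guides cleavage of pre-ribosomal RNA, at the top (SNORD3D 2.78, SNORD3C 2.73 and SNORD3A 2.69). Of 26 proteins of ribosome biogenesis 19 were higher and 0 lower (median 0.39, or 0.08 with median centring, where 1 was higher). NOP16, a nucleolar protein, had 9.58 and 9.80 with Y15, against 8.44 and 8.66 in untreated cells, a rise of 1.14 (standard error 0.13, adjusted p = 7.35e-05). Cytosolic ribosomal proteins had 5 of 66 higher (2 to 4 when an array was left out and 0 with median centring) and 5 lower (2 when any 1 array was left out; median 0.04, but -0.08 with median centring), shares below the 17.3% and 18.1% of all genes.

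Lipid and respiratory genes were called in both directions, and their shares are to be read beside the 17.3% higher and 18.1% lower of all genes. Fatty acid genes had 5 of 16 lower (31.2%, 2 to 5 genes when an array was left out) and 2 higher (0 with median centring). SCD had 7.75 and 7.75 with Y15, against 9.98 and 9.86 in untreated cells (standard error 0.20, adjusted p = 1.12e-05) and SCD5, its paralog, fell by 0.64, while ELOVL1, an elongase of long fatty acids, rose by 0.72. Cholesterol genes had 5 of 20 lower (25%) and 1 higher (0 with median centring), with ACAT2, which makes acetoacetyl-CoA, at -0.80, TM7SF2, a sterol reductase, at -0.69, and INSIG2, a sterol sensor, at -0.59, and SC5D, a sterol desaturase, as the riser at 0.68. Of 46 subunits of the respiratory chain 9 were lower (19.6%, 5 to 9 genes when an array was left out) and 4 higher (8.70%, 1 to 5 genes when an array was left out and 0 with median centring). Those with the largest changes were NDUFB10 (-0.58) and NDUFB9 (0.57) of complex I. ELOVL1, SC5D and NDUFB9 were not called with median centring. Of 4 thyroid differentiation genes 2 were lower. PAX8, the lineage factor of thyroid cells, had 10.71 and 10.77 with Y15, against 11.52 and 11.55 in untreated cells, and fell by 0.80 (standard error 0.081, adjusted p = 2.68e-05), and FOXE1, its partner, fell by 0.64. KRT80, a keratin of epithelia, fell by 1.41, and KRT34, a hair keratin, had 8.53 and 8.75 with Y15, against 7.004 and 6.94 in untreated cells, a rise of 1.67. SNAI2, the transcription factor SLUG, which represses epithelial genes, had 9.30 and 9.24 with Y15, against 8.01 and 7.79 in untreated cells, a rise of 1.37 (standard error 0.082, adjusted p = 6.12e-07), while KRT7 (-0.49) was lower, and VIM, vimentin, was lower too (-0.49) but was not called with median centring.

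The difference of the TPC1 change from the mean change of BCPAP and K1 was tested in the same fit, since each line has its own untreated arrays. Untreated BCPAP replicate 2 had 16004 probes above background, the fewest of the 12 arrays, against 18268 on its duplicate. The effect of that array on the difference was not tested. It was called for 1623 of the 11207 genes (14.5%), with 752 (6.71%) above the other lines and 871 (7.77%) below. Among the 399 genes over 2-fold in TPC1, 304 differed, a count that their choice by size on the TPC1 arrays favours. Of the 1623 genes, 1385 (85.3%) were above background in both other lines, against 84.5% of all genes tested. This share was 92.4% where TPC1 was above the other lines and 79.2% where it was below. Of the genes with TPC1 below, 79 were above background in neither other line. Among the largest falls that differed 8 of 13 were above background in both, against 11 of 12 of the largest rises. CXCL8 changed by 3.54 in TPC1, against 0.66 in BCPAP and 0.27 in K1 (adjusted p of the difference = 4.86e-07). HMOX1 changed by 3.55 in TPC1, against 0.71 in BCPAP and 0.53 in K1 (adjusted p = 0.000721), and SNORD3A by 2.69 in TPC1, against 0.18 in BCPAP and 0.15 in K1. CEBPD changed by -2.43 in TPC1, against 0.12 in BCPAP and -0.36 in K1. AIF1L changed by -2.36 in TPC1, against 0.22 in BCPAP and 0.11 in K1. Neither CEBPD nor AIF1L was called in BCPAP or K1. SLC17A3, KCNIP1 and FLG were not above background in either other line, where a fall could not be seen.

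By list, the members that differed from the other lines were as follows. For p53 targets 17 of 26 differed, all of them with TPC1 above the other lines. Both other lines carry p53 mutations per the study, and the part of these in the difference was not tested. For small nuclear RNA 11 of 19 differed, all above. For glycolysis and hypoxia 15 of 32 differed, all with TPC1 below, and for matrix genes 9 below and 2 above of 29. These stand beside 6.71% above and 7.77% below among all genes. For NRF2 targets 7 were above and 7 below of 24, and the list median was 0.24 in TPC1, against 0.39 in BCPAP and 0.41 in K1. PFKFB4 changed by -1.88 in TPC1, against -0.55 in BCPAP and 0.32 in K1, and CDKN1A by 2.31 in TPC1, against 0.71 in BCPAP and 1.11 in K1. For ATF4 targets 4 of 20 differed, all with TPC1 above (CEBPB, CEBPG, SESN2 and NUPR1, a stress-induced chromatin protein named after its value was seen), and the list median was 1.57 in TPC1, against 1.08 in BCPAP and 0.53 in K1. For mitotic spindle genes and for mitotic cyclins and kinases 0 differed, so that a difference between the lines was not shown there. The median of the spindle list was -0.93 in TPC1, against -0.56 in BCPAP and -0.645 in K1. Standard errors of the difference were 0.53 for KIF20A and 0.48 for CCNB2, so that smaller differences could be missed. ASNS changed by 2.43 in TPC1, against 2.41 in BCPAP and 1.72 in K1, and KIF20A by -2.20 in TPC1, against -2.20 in BCPAP and -1.43 in K1.

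**Figure D5:**
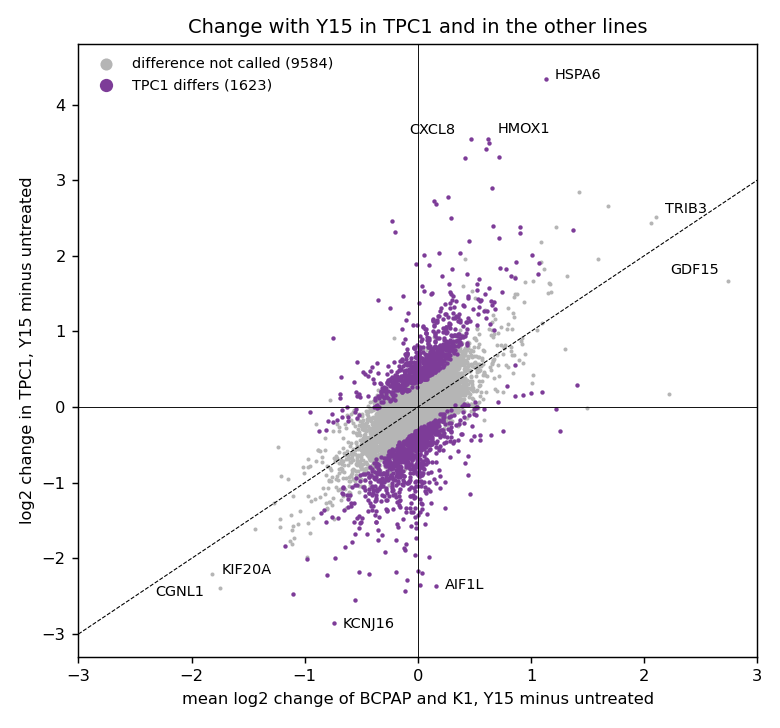
Log2 change with Y15 in TPC1 (vertical) against the mean change of BCPAP and K1 (horizontal) for the 11207 genes tested, with purple points where the difference was called (1623 genes) and a dashed line of equal change. HSPA6, CXCL8 and HMOX1 lie far above the dashed line and AIF1L and KCNJ16 far below it, whereas KIF20A and CGNL1 lie near it and are grey.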

How the data were processed

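Total RNA of TPC1, BCPAP and K1 cells, with Y15 or untreated and in duplicate, was labelled as biotin cRNA and hybridized to Illumina bead arrays. The authors deposited a signal intensity and a detection p-value for each of 47311 probes, as exported by the array software without normalization. They also deposited a table of log2 values, which per the study's methods was log2 transformed and quantile normalized after the lumi model, with no version given in the sources used here. The methods name a smaller array than the number of probes implies.

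From the deposited intensities, log2 values were quantile normalized over the 12 arrays. Probes were named through GEO's platform annotation, with symbols updated to RefSeq by Entrez ID (30109 probes had 1 symbol, 8 several and 17194 none). Probes with 1 symbol and a detection p under 0.05 on both arrays of either TPC1 group were kept, and the brightest over the 4 TPC1 arrays stood for its gene. Limma 3.58.1 (lmFit and eBayes, R 4.3.3) was fitted to the 12 arrays with 6 groups, and calls were made at a Benjamini-Hochberg adjusted p under 0.05, two-sided. The difference of the TPC1 change from the mean change of BCPAP and K1 was a contrast of the same fit. The steps were tested on simulated data. Where a gene was not above background in a group, its fold is a lower bound against the higher of the dimmest detected signal and its own.

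Group members came from the labels. Replicate numbers were not taken as pairs, since nothing says what they share. The genes named were the 15 with the largest rise and fall, up to 4 called members of each list with the largest change, defining members, and PTK2 and PTK2B. Others are marked as chosen after their values were seen. The lists and the comparison were chosen with earlier results of these data known. Alternatives covered median centring, limma's neqc background correction, the authors' log2 table, the TPC1 arrays alone, filters on dim probes, the mean of all probes, a replicate block, the methods' threshold and each TPC1 array left out. Promoters were the 250 bases before the first listed RefSeq start (GRCh38.p14), found for 9067 of the 11207 genes tested, and motifs were searched on both strands. No test was made over lists.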

Additional observations from a re-analysis of the deposited data

Results flagged for a closer look

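The change in TPC1 differed from the mean change of BCPAP and K1 for 1623 genes at an adjusted p under 0.05 in limma. Of the 30 genes with the largest changes in TPC1, 25 were among them, and the following values are the TPC1 change minus the mean change of the other lines, on the log2 scale. Among the rises the difference was 3.21 for HSPA6, 3.07 for CXCL8, 2.92 for HMOX1 and 2.21 for LCP1. In the U1 family it was 2.86 for RNVU1-18, 2.80 for RNU1-3, 2.59 for RNVU1-7 and 2.24 for RNU1-1. RNA5S9 differed by 2.87, and the U3 genes SNORD3C, SNORD3D and SNORD3A by 2.59, 2.52 and 2.52. HSPA6 was not above background in K1, and in BCPAP it also rose, by 2.24. Among the falls the difference was -2.52 for AIF1L, -2.31 for CEBPD, -2.19 for IGFBP3, -1.99 for VCAN, -1.78 for CXXC5, -1.66 for SCD, -1.42 for THBS1 and -1.37 for CD24. It was -2.10 for KCNJ16 and -1.99 for FAM20C, which were not above background in BCPAP. For SLC17A3, KCNIP1 and FLG, which were not above background in either other line, it was -2.37, -2.24 and -2.17. Some of these genes also fell in another line, among them KCNJ16 in K1 (-1.47) and THBS1 in BCPAP (-1.51). CD24 fell in both (-1.25 in BCPAP and -0.95 in K1). A difference therefore does not mean that a gene changed in TPC1 alone.

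Probes without a single gene symbol stayed outside the comparison of genes. Of 3988 such probes above background in TPC1, 406 were called higher and 359 lower with Y15 in the same kind of fit (19.2% called, against 35.4% of genes). These shares are not alike, since every passing probe counts in the first and only the brightest probe of a gene in the second.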

How the results depend on the processing

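With median centring in place of quantile normalization the median change of all genes was -0.25 and 2051 of the 3967 calls were kept. Higher calls then numbered 230, and 742 genes were called over 2-fold, 81 higher and 661 lower. With neqc background correction 1030 genes were called over 2-fold (432 higher and 598 lower). More genes were called with the 4 TPC1 arrays fitted alone, at 5768 (2827 higher and 2941 lower). Without the 4 K1 arrays 4864 were called. The number of calls thus depends on which arrays set the spread. Leaving out 1 TPC1 array gave 2466 to 2692 calls, 1190 to 1280 higher and 1276 to 1412 lower, with 720 to 882 genes that differed from the other lines, with the lone array assumed to vary like the other groups. GPX1 changed by -0.13 with median centring (adjusted p = 0.541), and RPL13 by 0.15 as the mean of its probes (adjusted p = 0.243), against main values of 0.31 and -0.57. Deviations of same-numbered TPC1 arrays correlated at 0.205, and with the replicate number as a block 3602 genes were called, 3516 of them among the main calls, and 1234 differed from the other lines. Of 183 named genes, 132 kept their call and direction under every alternative. The causes of these shifts were not tested. Having 2 arrays a group limits the precision, and a change below background cannot be seen.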

Other observations

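Different probes of a gene did not always give the same call. The 3967 called genes had 1580 further probes that passed the filter, of which 761 were called in the same direction, 805 were not called and 14 were called in the opposite direction. RPL13, a protein of the large ribosomal subunit, is such a case, with its brightest probe lower and another probe higher by 0.87.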
